A study of Homo sapiens with 12 samples.

Results

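The proteasome genes were taken as all genes with a symbol that starts with PSMA, PSMB, PSMC, PSMD, PSME, PSMF or PSMG and a number, without pseudogenes and antisense genes. Of 42 such genes that had a probe set with exactly 1 symbol, 41 were tested, among 13130 genes tested of 19775 in all. The probe set with the highest mean over the 12 arrays stood for a gene, and a gene was kept where this probe set reached log2 4 on 3 arrays or more. The members were thus selected on their level over all groups, which is not a result, and not on a difference between groups. The member left out, PSMA8, an alpha subunit of the testis, had a third-highest value of 1.91 on the log2 scale. The member nearest to the threshold on the other side, PSME4, had a third-highest value of 8.21 and a lowest value of 7.51, so no member passed through 1 group alone. PSMA6 and PSME2 were only on probe sets with several symbols, and PSMB11, PSMC5, PSMD7 and PSMD13 were not analysed here. PSMC3IP and PSME3IP1, which match by name but are not subunits, stayed out of the counts, as did 6 antisense or divergent transcripts.

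RNA was measured on 12 expression arrays of Sk-hep1 cells, an established human line from ascites that the labels class as an adenocarcinoma of endothelial type. The 4 groups of 3 arrays were 12 or 24 hours in growth medium (GM), which is based on DMEM, and 12 or 24 hours in high-fat medium (HFM), which is based on DMEM/F12. All cells had been grown in DMEM with serum, antibiotics and glutamine before. The sources used here do not say which fat HFM contains, and since the base of the medium also changed, fat and base cannot be told apart. The study set out to profile expression in this 1 line after a fat-rich incubation. No label says that the replicates came from separate cultures. The p-values therefore reflect the spread between these samples alone, and this spread may be technical.

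The proteasome is the main protease of the cytosol and nucleus. Its barrel-shaped core holds rings of alpha subunits, which gate the barrel, and rings of beta subunits, of which PSMB5, PSMB6 and PSMB7 cut proteins. A regulatory cap binds ubiquitin-tagged proteins, unfolds them and feeds them to the core: its base holds the ATPases and its lid removes the ubiquitin. Interferon-induced PSMB8, PSMB9 and PSMB10 can take the place of PSMB5, PSMB6 and PSMB7, which gives the immunoproteasome that makes peptides for antigen presentation. Dedicated chaperones build core and cap. Cells that lack proteasome activity raise their subunit genes together through NFE2L1 (NRF1), which binds antioxidant response elements.

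Promoter sequences are shown for 5 members whose values are described below: PSMD12, with the largest fall at 24 hours, and PSMB9, PSMB10, PSME1 and PSMG4. Those named after PSMD12 were among the 6 members not called lower then. PSMB10 was not called although all its HFM arrays lay below GM (-0.21). Each sequence runs 5′ to 3′ along the gene's strand from 250 bases before to 50 bases after the start in RefSeq (GRCh38.p14). Capitals mark matches, on either strand, to the antioxidant response element TGACNNNGC, the interferon response element GAAANNGAAA or the gamma-activated site TTCNNNGAA, where N is any base.
PSMD12 (chr17:67366528-67366827, minus strand): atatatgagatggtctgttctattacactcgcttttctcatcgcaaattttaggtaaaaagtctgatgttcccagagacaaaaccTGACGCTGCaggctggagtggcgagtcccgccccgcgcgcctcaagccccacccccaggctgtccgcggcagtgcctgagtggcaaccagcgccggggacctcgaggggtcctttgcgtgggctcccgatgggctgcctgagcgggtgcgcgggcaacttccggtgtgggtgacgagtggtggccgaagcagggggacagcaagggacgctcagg
PSMB9 (chr6:32853942-32854241, plus strand): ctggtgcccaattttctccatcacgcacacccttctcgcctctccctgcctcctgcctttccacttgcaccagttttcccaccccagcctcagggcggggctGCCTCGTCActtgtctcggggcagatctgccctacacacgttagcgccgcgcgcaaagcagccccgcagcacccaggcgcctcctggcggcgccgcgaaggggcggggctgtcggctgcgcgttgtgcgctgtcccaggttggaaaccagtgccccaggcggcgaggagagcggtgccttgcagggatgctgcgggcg
PSMB10 (chr16:67936801-67937100, minus strand): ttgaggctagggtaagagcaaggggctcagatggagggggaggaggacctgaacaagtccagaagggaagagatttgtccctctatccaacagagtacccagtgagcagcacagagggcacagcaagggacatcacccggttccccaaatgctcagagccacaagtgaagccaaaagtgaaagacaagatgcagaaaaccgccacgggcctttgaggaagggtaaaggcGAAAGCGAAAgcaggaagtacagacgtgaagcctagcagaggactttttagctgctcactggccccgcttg
PSME1 (chr14:24135944-24136243, plus strand): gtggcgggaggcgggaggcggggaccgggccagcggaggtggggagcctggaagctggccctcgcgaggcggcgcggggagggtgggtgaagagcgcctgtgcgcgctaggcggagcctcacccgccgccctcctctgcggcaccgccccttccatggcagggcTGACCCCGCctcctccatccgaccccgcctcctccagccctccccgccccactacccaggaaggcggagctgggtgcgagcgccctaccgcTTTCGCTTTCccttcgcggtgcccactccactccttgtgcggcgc
PSMG4 (chr6:3258697-3258996, plus strand): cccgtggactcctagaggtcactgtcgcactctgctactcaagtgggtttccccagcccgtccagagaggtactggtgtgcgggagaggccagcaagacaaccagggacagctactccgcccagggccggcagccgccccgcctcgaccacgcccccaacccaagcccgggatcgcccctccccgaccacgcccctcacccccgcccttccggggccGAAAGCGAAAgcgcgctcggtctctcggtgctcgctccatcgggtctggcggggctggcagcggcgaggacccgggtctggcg
PSMB10 and PSMG4 held the same interferon element, GAAAGCGAAA, starting 21 and 33 bases before the start, and PSME1 held its reverse complement, TTTCGCTTTC, from base 6 after the start. PSMD12 and PSMB9 held an antioxidant element and no interferon element in this window.

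Windows were found for 35 of the 41 members, and PSMA7, PSMB1, PSMB6, PSMB7, PSMD4 and PSMG3 had none. The antioxidant element occurred in 12 of 35 windows (34.3%), against 15.4% of 10590 tested genes and 13.6% of 27305 promoters. The interferon element occurred in 5 of 35 (14.3%), in PSMA4, PSMB4, PSMB10, PSME1 and PSMG4, against 2.60% of tested genes and 3.65% of all promoters. Of the 6 members not called lower at 24 hours 3 held the interferon element and 3 the antioxidant element. The gamma-activated site was in 0 of them and the CCAAT box in 1. Of the 29 members called lower with a window these counts were 2, 9, 4 and 15 in the same order. The 6 include PSMB10, which held the interferon element and was below GM on every HFM array. They also include PSMB8 and PSME4, which held no interferon element and are not printed. PSMA4 and PSMB4, called lower with the interferon element, are not printed either. The gamma-activated site was in 4 windows (11.4%, against 6.20% and 7.88%) and the CCAAT box, searched as CCAAT on both strands, in 16 (45.7%, against 36.6% and 35.7%). A match describes letters and not a bound site, and these motifs were chosen with the expression results known. PSMB9 has a further arrangement: it starts 488 bases from TAP1, the peptide transporter gene, and both are read away from each other.

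On the arrays as a whole, the median of all probe sets was between 4.05 and 4.09 on the log2 scale. The HFM arrays at 12 hours had a mean correlation with each other of 0.994, against 0.998 in the other groups. Among them, HFM replicate 1 stood apart by its hybridisation control mean of 10.55. This was nearer to the GM arrays at 12 hours (10.60 to 10.63) and above the other 8 arrays (10.23 to 10.43). Transcript integrity was read from ACTB as its 3' minus its 5' probe set. At 12 hours this measured 0.89 ± 0.03 log2 units in GM (SD, n = 3) and 0.84 ± 0.13 in HFM. At 24 hours it measured 1.07 ± 0.05 in GM and 1.58 ± 0.06 in HFM, and the same measure of GAPDH was 0.16 ± 0.02 and 0.27 ± 0.03. It thus moved with the medium at 24 hours, and its part in the results below was not tested. Of 14 endothelial markers 6 passed the filter, while CDH5, VWF, KDR, TEK, TIE1, ERG, EMCN and CLDN5 were below it. Of 9 hepatocyte markers 4 passed, with ALB, APOA1, APOB, FGB and AHSG below the filter.

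At 24 hours most proteasome genes were lower in HFM than in GM. Of the 41 members, 35 were lower, 2 were higher and 4 were not called, with a median log2 change of -0.34. Over all genes tested 37.5% were lower and 20.6% higher (58.1% in all), with a median of -0.08. Each of the 13 core and 14 cap genes was lower, as were 6 of 7 assembly genes and 2 of 3 other regulators, whereas 2 of the 4 immune genes, PSMB9 and PSME1, were higher. The HFM and GM arrays did not overlap for 36 lower and 2 higher members, against 43% and 25.7% of all genes. With each array centred on its median, 24 members were lower and 3 higher, the median of all genes moved from -0.08 to 0.10, and the class medians were -0.25 for core alpha, -0.10 for core beta, -0.22 for cap base, -0.23 for cap lid, -0.07 for assembly, -0.50 for other regulators and 0.21 for immune genes. Shares of all genes called were not taken after centring. The shares above are from the fit without it and are no background for the centred counts, here or below. Arrays measure RNA of all cells in a culture, so fewer cells of a type and less RNA per cell cannot be told apart.

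At 12 hours members were called in both directions. Of the 41 members 13 were higher in HFM and 17 lower, with a median of -0.05, against 28.9% higher and 33% lower of all genes (61.9% in all) and a median of -0.07. These shares are near the background, and the arrays did not overlap for 16 higher and 17 lower members, against 30.4% and 33.2% of all genes. Core alpha genes were higher in 5 of 6 cases and lower in 0, while of the 7 core beta genes 0 were higher and 4 lower. Of the immune genes 3 of 4 were lower, of the assembly genes 5 of 7 were lower and 2 higher, and the cap was mixed, with 5 higher and 4 lower of 14. No difference between classes was tested. The count of lower members depended on single arrays: it was 10 without GM replicate 3, HFM replicate 2 or HFM replicate 3 and 22 without HFM replicate 1, which lay above the other HFM arrays for most members. A term for the class of the hybridisation controls was also fitted, chosen after seeing the data. This class puts HFM replicate 1 with the GM arrays at 12 hours and divides no other group. The 12-hour change in that fit therefore sets HFM replicate 1 alone against GM, with -0.04 for PSMB5 and 0.32 for PSMB2. Counts of calls from it are not given.

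**Figure D1:**
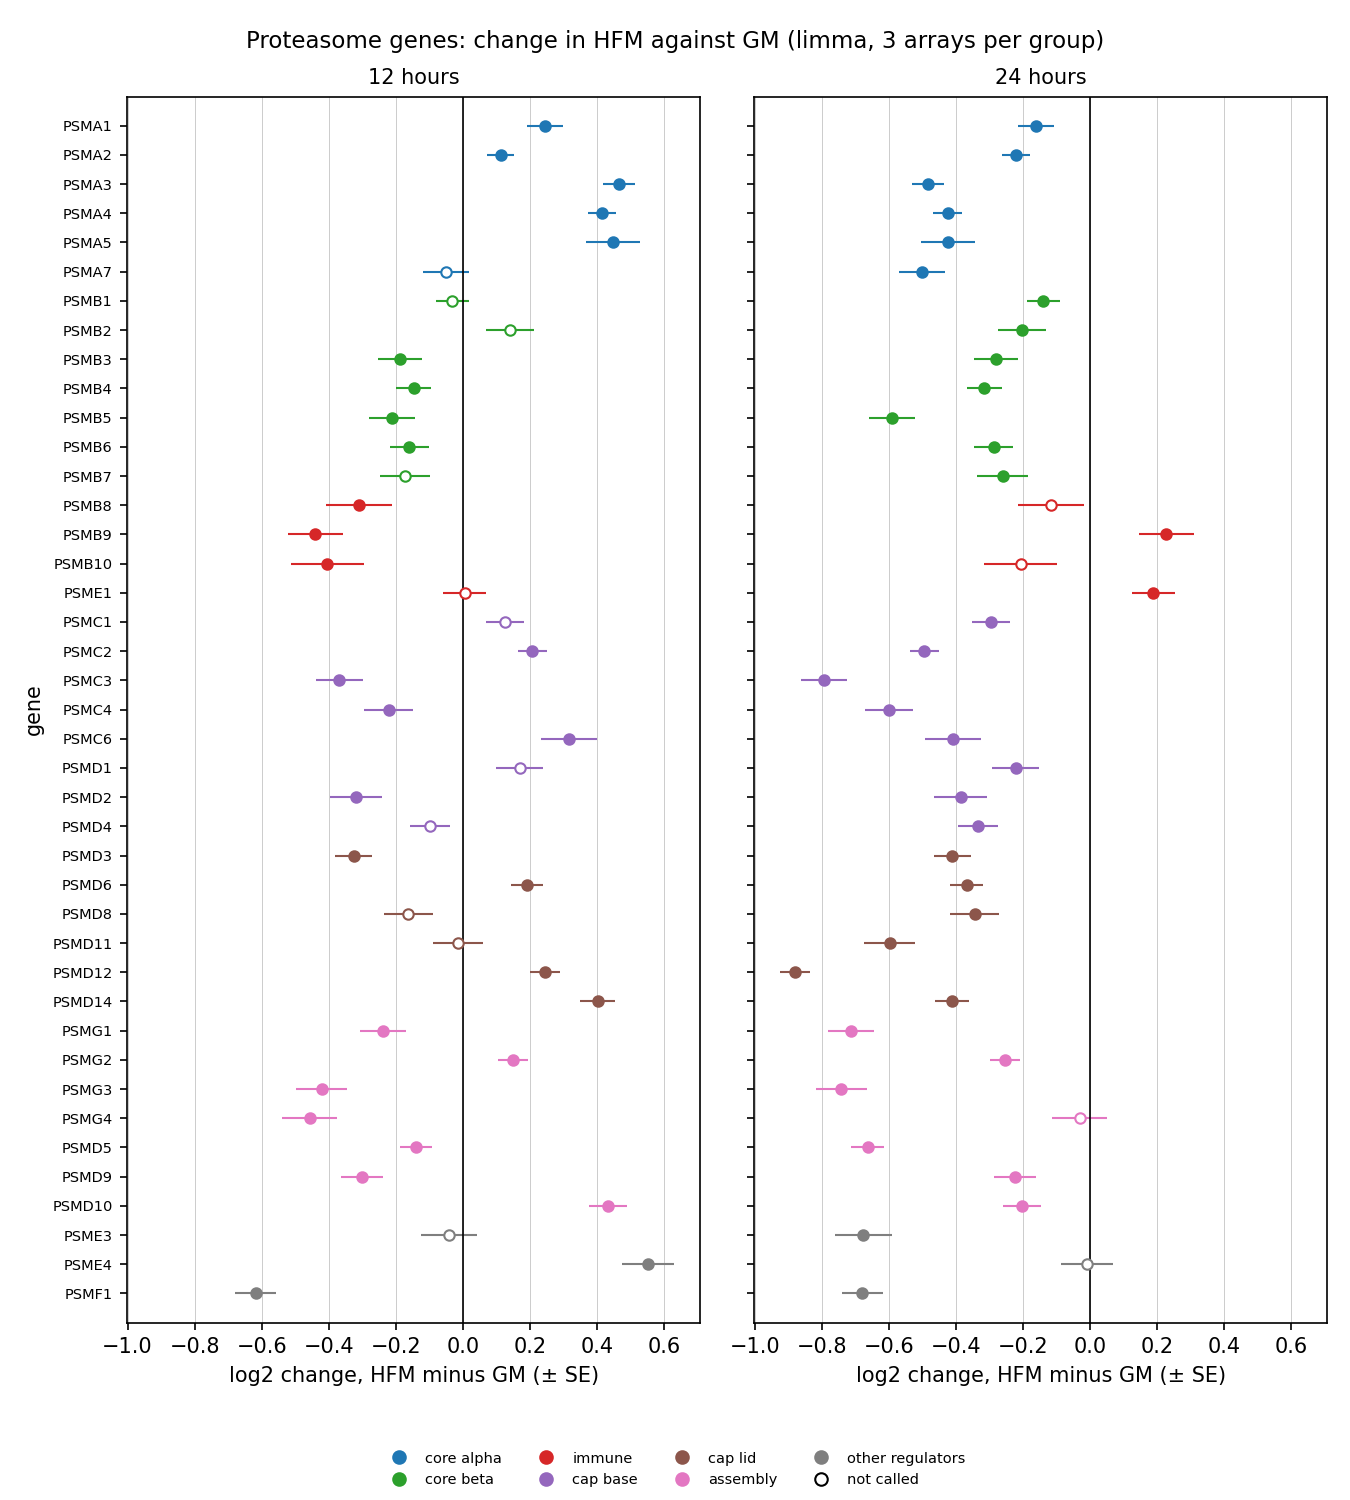
Log2 change of each of the 41 proteasome genes in HFM against GM at 12 hours and at 24 hours, with standard error bars (n = 3 arrays per group). Colours show the class and filled points were called at an adjusted p under 0.05; at 24 hours 35 points lie below 0 and are filled, and PSMB9 and PSME1 are the filled points above 0.

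The alpha subunits, which form the outer rings and the gate of the core, gave the clearest turn between the times. PSMA3 lay at 11.24, 11.22 and 11.21 on the GM arrays and 11.75, 11.65 and 11.65 on the HFM arrays at 12 hours, and the 24-hour values were 11.76, 11.83 and 11.77 in GM against 11.34, 11.27 and 11.29 in HFM. Its HFM arrays were above all GM arrays at 12 hours and below all of them at 24 hours. The log2 change was 0.46 ± 0.05 (adjusted p = 7.6e-06) at 12 hours, the largest rise of an alpha gene, and -0.48 ± 0.05 (adjusted p = 3.1e-06) at 24 hours, where 0.715 of the GM level was left. PSMA5 was at 10.79, 10.81 and 10.78 on the GM arrays and 11.47, 11.16 and 11.10 on the HFM arrays at 12 hours, and the 24-hour values were 11.12, 11.15 and 11.10 in GM against 10.75, 10.66 and 10.68 in HFM. HFM replicate 1 was the highest array at 12 hours, and the groups did not overlap at either time. The change of PSMA5 was 0.45 ± 0.08 (adjusted p = 0.00054) and -0.42 ± 0.08 (adjusted p = 0.00065).

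PSMA7 differed from the other alpha genes at 12 hours. PSMA7 measured 12.15, 12.17 and 12.18 on the GM arrays and 12.28, 12.03 and 12.03 on the HFM arrays at 12 hours, and the 24-hour values were 12.14, 12.11 and 12.02 in GM against 11.61, 11.55 and 11.60 in HFM. The 12-hour groups overlapped, with HFM replicate 1 above and the other HFM arrays below GM, and the change was -0.05 ± 0.07 (adjusted p = 0.53), or -0.14 without HFM replicate 1 (adjusted p = 0.0175). A second probe set of PSMA7, with a mean of 10.15, was called lower at 12 hours in a limma fit of all probe sets (-0.14, adjusted p = 0.034). At 24 hours PSMA7 had the largest fall of the alpha genes, -0.50 ± 0.07 (adjusted p = 5.2e-05). PSMA1, PSMA2 and PSMA4 were higher at 12 hours, by 0.24, 0.11 and 0.41, and lower at 24 hours, with changes of -0.16, -0.22 and -0.43. PSMA2 lost its 12-hour call without any 1 GM array or without HFM replicate 2 or 3 at that time, with adjusted p between 0.052 and 0.095, and without GM replicate 2 at 24 hours (0.051). PSMA1 lost its 24-hour call without GM replicate 1 or 3 or HFM replicate 1 or 2 (adjusted p from 0.053 to 0.072), and its change was 0.017 after centring. The 24-hour change of PSMA2 was -0.042 after centring and not called.

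Of the catalytic beta subunits, PSMB5, which cuts after hydrophobic residues, changed most. PSMB5 lay at 11.96, 11.93 and 11.96 on the GM arrays and 11.91, 11.67 and 11.64 on the HFM arrays at 12 hours, and the 24-hour values were 11.64, 11.59 and 11.50 in GM against 10.99, 10.99 and 10.98 in HFM. All HFM arrays lay below the GM arrays at both times, and HFM replicate 1 at 12 hours was nearest to GM. The change was -0.21 ± 0.07 (adjusted p = 0.019) at 12 hours and -0.59 ± 0.07 (adjusted p = 1.3e-05) at 24 hours. The 12-hour call was lost without GM replicate 1 or 3 (adjusted p = 0.051 each), HFM replicate 2 (0.071) or HFM replicate 3 (0.074), and the 24-hour call was kept in the fit without any 1 array.

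PSMB6, the subunit that cuts after acidic residues, moved less. PSMB6 read 12.04, 12.00 and 12.09 on the GM arrays and 12.00, 11.82 and 11.85 on the HFM arrays at 12 hours, and the 24-hour values were 11.89, 11.82 and 11.75 in GM against 11.54, 11.55 and 11.52 in HFM. The change was -0.16 ± 0.06 (adjusted p = 0.035) and -0.29 ± 0.06 (adjusted p = 0.0012), and the groups did not overlap. PSMB7 read 12.15, 12.14 and 12.15 on the GM arrays and 12.16, 11.88 and 11.88 on the HFM arrays at 12 hours, and the 24-hour values were 11.90, 11.83 and 11.74 in GM against 11.60, 11.57 and 11.52 in HFM. For PSMB7, which cuts after basic residues, HFM replicate 1 was the highest of the 12-hour arrays and the other HFM arrays were the lowest. Its change was -0.17 ± 0.08 (adjusted p = 0.063) at 12 hours, or -0.27 without HFM replicate 1 (adjusted p = 6.2e-04), and -0.26 ± 0.08 (adjusted p = 0.01) at 24 hours. After centring the 24-hour change of PSMB7 was -0.08 and not called.

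The structural beta subunits followed at 24 hours, with changes of -0.14 for PSMB1, -0.20 for PSMB2, -0.28 for PSMB3 and -0.32 for PSMB4. The smallest of these calls were not firm. PSMB1 and PSMB2 were each not called without GM replicate 1 or 2 or HFM replicate 2 or 3 (adjusted p from 0.065 to 0.11), and after centring their changes were 0.039 and -0.025. PSMB3 had a 24-hour change of -0.10 after centring, which was not called. At 12 hours PSMB3 and PSMB4 were lower (-0.19 and -0.15), and both calls, like that of PSMB6, were lost without GM replicate 1 or 3 or HFM replicate 2 or 3 (adjusted p from 0.051 to 0.12), that of PSMB3 also without GM replicate 2 (0.054). PSMB1 and PSMB2 had changes of -0.03 (adjusted p = 0.59) and 0.14 (adjusted p = 0.11), the latter 0.20 and called without HFM replicate 3 (adjusted p = 0.039). Further probe sets of PSMB2, in a limma fit of all probe sets, gave -0.30 (adjusted p = 0.0040), 0.36 (0.020) and 0.0035 (not called) at 12 hours. Their means were 6.94, 3.71 and 5.18.

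**Figure D2:**
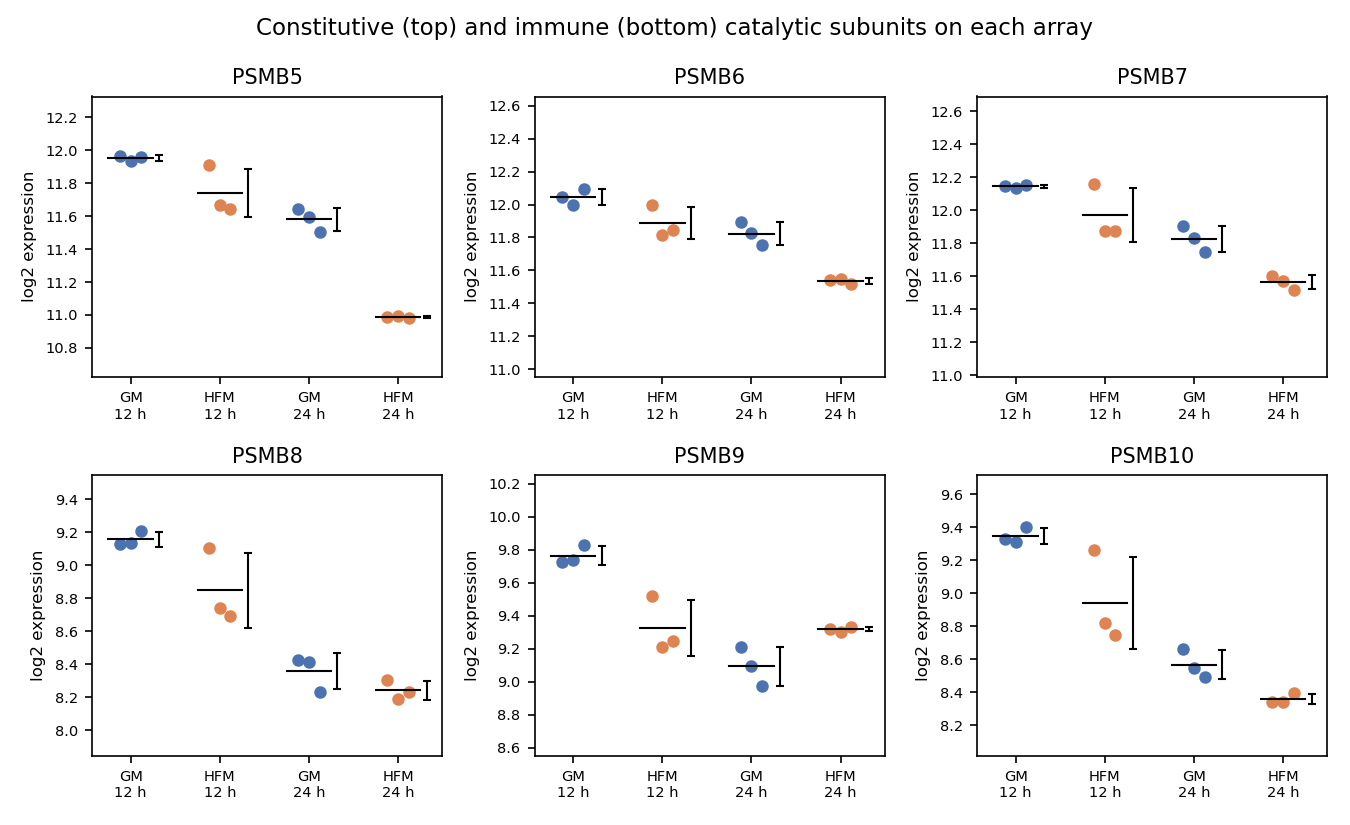
Log2 values on every array for the constitutive catalytic subunits PSMB5, PSMB6 and PSMB7 (top) and the immune subunits that can take their place, PSMB8, PSMB9 and PSMB10 (bottom), in the 4 groups; points are arrays, lines are means and bars are SD (n = 3). The axes do not start at 0 and span the same range of log2 units; at 24 hours PSMB5 falls from GM to HFM by 0.59 on the log2 scale, while PSMB9 is higher by 0.23.

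Of the immune catalytic subunits, only PSMB9 was called higher in HFM at 24 hours. PSMB9 lay at 9.73, 9.74 and 9.83 on the GM arrays and 9.52, 9.21 and 9.25 on the HFM arrays at 12 hours, and the 24-hour values were 9.21, 9.09 and 8.97 in GM against 9.32, 9.30 and 9.33 in HFM. At 12 hours the HFM arrays were below all GM arrays, and at 24 hours they were above all of them. The change was -0.44 ± 0.08 (adjusted p = 0.00077) and then 0.23 ± 0.08 (adjusted p = 0.034), and PSMB9 was the only member called lower at 12 and higher at 24 hours. The 24-hour call is weak: it was lost without GM replicate 2 (adjusted p = 0.074) or 3 (0.14) or without HFM replicate 1 (0.073), 2 (0.065) or 3 (0.081), with a change between 0.17 and 0.23.

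PSMB8 fell with time in both media. PSMB8 was at 9.13, 9.13 and 9.21 on the GM arrays and 9.11, 8.74 and 8.69 on the HFM arrays at 12 hours, and the 24-hour values were 8.43, 8.41 and 8.23 in GM against 8.30, 8.19 and 8.23 in HFM. At 24 hours the groups overlapped, and the HFM change was -0.31 ± 0.10 (adjusted p = 0.017) at 12 hours and -0.12 ± 0.10 (adjusted p = 0.34) at 24 hours. PSMB10 was at 9.33, 9.31 and 9.41 on the GM arrays and 9.26, 8.82 and 8.75 on the HFM arrays at 12 hours, and the 24-hour values were 8.66, 8.55 and 8.49 in GM against 8.34, 8.34 and 8.39 in HFM. All HFM arrays of PSMB10 were below the GM arrays at both times, with a change of -0.40 ± 0.11 (adjusted p = 0.0073) at 12 hours and -0.21 ± 0.11 (adjusted p = 0.13) at 24 hours. In the fit without HFM replicate 1 at 12 hours the 24-hour change of PSMB10, -0.21, was called (adjusted p = 0.0035). It was also called with only the compared groups in the fit (0.012). The hybridisation control class chosen after seeing the data sets HFM replicate 1 at 12 hours apart from its group. For the 24-hour change it thus repeats the fit without that array (0.0035). The 12-hour call of PSMB8 was lost without GM replicate 3 (adjusted p = 0.054), HFM replicate 2 (0.063) or HFM replicate 3 (0.069).

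PSME1 encodes a subunit of the interferon-induced activator ring that opens the core. PSME1 lay at 10.90, 10.88 and 10.92 on the GM arrays and 11.03, 10.83 and 10.86 on the HFM arrays at 12 hours, and the 24-hour values were 10.69, 10.65 and 10.57 in GM against 10.88, 10.75 and 10.84 in HFM. The 12-hour groups overlapped, and at 24 hours all HFM arrays were above GM. The change was 0.0047 ± 0.06 (adjusted p = 0.95) at 12 hours and 0.19 ± 0.06 (adjusted p = 0.023) at 24 hours, and the second call was lost without GM replicate 3 (adjusted p = 0.087) or HFM replicate 1 (0.086) or 3 (0.064). In GM all 4 immune genes fell from 12 to 24 hours, by 0.80 for PSMB8, 0.67 for PSMB9, 0.78 for PSMB10 and 0.27 for PSME1 on the log2 scale. In HFM PSMB8 and PSMB10 fell by 0.61 and 0.58, and PSMB9 and PSME1 had changes of -0.0059 and -0.08 that were not called.

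Leukocytes are rich in immune subunits, so leukocyte markers were set beside them. Of 7 leukocyte markers 4 passed the filter, and PTPRC, CD3E and LYZ were below it. The sum of all 7 on the linear scale was 204 to 221 in GM and 154 to 163 in HFM at 12 hours, and 144 to 153 in GM and 131 to 141 in HFM at 24 hours. The sum of the 14 endothelial markers was 486.7 to 492.6, 306.9 to 339.5, 319.6 to 351.3 and 272.3 to 302.8 in the same order, so both sums were lower in HFM than in GM on every array of a time. The sum of the 9 hepatocyte markers was 175 to 178, 161 to 166, 155 to 161 and 174 to 179, lower in HFM at 12 hours and higher at 24 hours. The sums do not describe each marker. Of the 6 endothelial markers tested 5 were lower at 12 hours and 3 at 24 hours, and of the 4 leukocyte markers 3 and 2, with 0 higher. At 24 hours ROBO4 had -0.78, while EGFL7 (0.10), ESAM (0.08) and PECAM1 (-0.18) were not called. Of the 4 hepatocyte markers 1 was lower and 1 higher at 12 hours, and 0 and 2 at 24 hours. Of all genes 33% were lower and 28.9% higher at 12 hours, and 37.5% and 20.6% at 24 hours. The part of these markers in the results was not tested.

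The change of each immune subunit was also set against that of the constitutive subunit it can replace, a comparison chosen after seeing the data. At 24 hours the difference between PSMB8 and PSMB5 was 0.48 log2 units higher in HFM than in GM, and that between PSMB9 and PSMB6 was 0.52 higher, with no overlap between arrays in either case. For PSMB10 and PSMB7 it was 0.05 higher, with overlap. The exact two-sided permutation p was 0.1, 0.1 and 0.3, where 0.1 is the smallest that 3 against 3 arrays allow, and 0.15, 0.15 and 0.3 after adjustment over the 6 tests. At 12 hours the same differences changed by -0.10, -0.28 and -0.23 in HFM (exact permutation p = 0.2, 0.1 and 0.1). Over the alternatives the 24-hour values ranged from 0.44 to 0.52 for PSMB8 against PSMB5, from 0.49 to 0.54 for PSMB9 against PSMB6, and from -0.73 to 0.10 for PSMB10 against PSMB7, where -0.73 is the value with probe sets averaged. The 12-hour values ranged from -0.16 to -0.0074, from -0.32 to -0.20 and from -0.71 to -0.10 in the same order.

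The cap base holds the 6 ATPases PSMC1 to PSMC6, of which 5 were measured, the scaffold subunits PSMD1 and PSMD2, and the ubiquitin receptor PSMD4. PSMC3 lay at 10.52, 10.57 and 10.59 on the GM arrays and 10.36, 10.13 and 10.09 on the HFM arrays at 12 hours, and the 24-hour values were 10.06, 10.01 and 9.97 in GM against 9.26, 9.16 and 9.25 in HFM. The HFM arrays were below the GM arrays at both times, and the 24-hour HFM arrays were the lowest of all. PSMC3 had the largest fall of the base at both times, -0.37 ± 0.07 (adjusted p = 0.00073) and -0.79 ± 0.07 (adjusted p = 1.2e-06), which left 0.577 of the GM level at 24 hours. PSMC6 lay at 10.92, 10.86 and 10.83 on the GM arrays and 10.96, 11.29 and 11.31 on the HFM arrays at 12 hours, and the 24-hour values were 11.52, 11.60 and 11.64 in GM against 11.14, 11.19 and 11.20 in HFM. Here the HFM arrays were above GM at 12 hours, with HFM replicate 1 the nearest to GM, and below GM at 24 hours. The change was 0.32 ± 0.08 (adjusted p = 0.0064) and -0.41 ± 0.08 (adjusted p = 0.0011). After centring the 24-hour change of PSMC6 was -0.23 and not called.

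The other base genes were all lower at 24 hours, from -0.60 for PSMC4 and -0.50 for PSMC2 to -0.22 for PSMD1, with -0.39 for PSMD2, -0.33 for PSMD4 and -0.30 for PSMC1. PSMD1 lost this call without GM replicate 1 (adjusted p = 0.062) or 2 (0.051) or HFM replicate 3 (0.054), and its change was -0.044 after centring. PSMC2 was higher at 12 hours (0.21), while PSMC4 and PSMD2 were lower (-0.22 and -0.32). PSMC4 lost the 12-hour call without GM replicate 3 (adjusted p = 0.056), HFM replicate 2 (0.072) or HFM replicate 3 (0.076). PSMC1, PSMD1 and PSMD4 had 12-hour changes of 0.13, 0.17 and -0.10 that were not called. Calls appeared for PSMC1 without HFM replicate 3 (0.17, adjusted p = 0.033), for PSMD1 without HFM replicate 2 (0.21, 0.040) or 3 (0.21, 0.030), and for PSMD4 without HFM replicate 1 (-0.16, 0.0069).

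The lid gave the largest change of all members. PSMD12, a scaffold subunit of the lid whose promoter with the antioxidant element is printed above, behaved alike on the arrays of each group. PSMD12 lay at 10.62, 10.62 and 10.62 on the GM arrays and 10.91, 10.84 and 10.84 on the HFM arrays at 12 hours, and the 24-hour values were 11.04, 11.04 and 11.04 in GM against 10.20, 10.17 and 10.12 in HFM. The HFM arrays were above GM at 12 hours and below GM at 24 hours, where they were the lowest of the 12. The change was 0.24 ± 0.04 (adjusted p = 0.00061) at 12 hours and -0.88 ± 0.04 (adjusted p = 1.2e-08) at 24 hours, when 0.544 of the GM level was left. PSMD14 encodes the enzyme of the lid that removes ubiquitin chains. PSMD14 lay at 11.32, 11.38 and 11.36 on the GM arrays and 11.84, 11.71 and 11.71 on the HFM arrays at 12 hours, and the 24-hour values were 11.84, 11.82 and 11.82 in GM against 11.47, 11.41 and 11.37 in HFM. Its change was 0.40 ± 0.05 (adjusted p = 4.7e-05), the largest rise of the lid, and -0.41 ± 0.05 (adjusted p = 2.5e-05), with no overlap at either time.

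PSMD3, another scaffold subunit, was lower at both times. PSMD3 lay at 10.56, 10.48 and 10.51 on the GM arrays and 10.29, 10.13 and 10.14 on the HFM arrays at 12 hours, and the 24-hour values were 10.13, 10.17 and 10.08 in GM against 9.75, 9.70 and 9.68 in HFM. Its changes of -0.33 ± 0.06 (adjusted p = 0.00037) and -0.41 ± 0.06 (adjusted p = 4.6e-05) differed by -0.09 ± 0.08, which was not called (adjusted p = 0.38). PSMD6 was higher at 12 hours (0.19) and lower at 24 hours (-0.37). PSMD8 and PSMD11 had 12-hour changes of -0.16 and -0.02 that were not called and were lower at 24 hours, with -0.34 and -0.60. Without HFM replicate 1 the 12-hour change of PSMD8 was -0.27 and called (adjusted p = 6.0e-05). A further probe set of PSMD11 was called higher at 12 hours (0.88) and lower at 24 hours (-0.30).

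**Figure D3:**
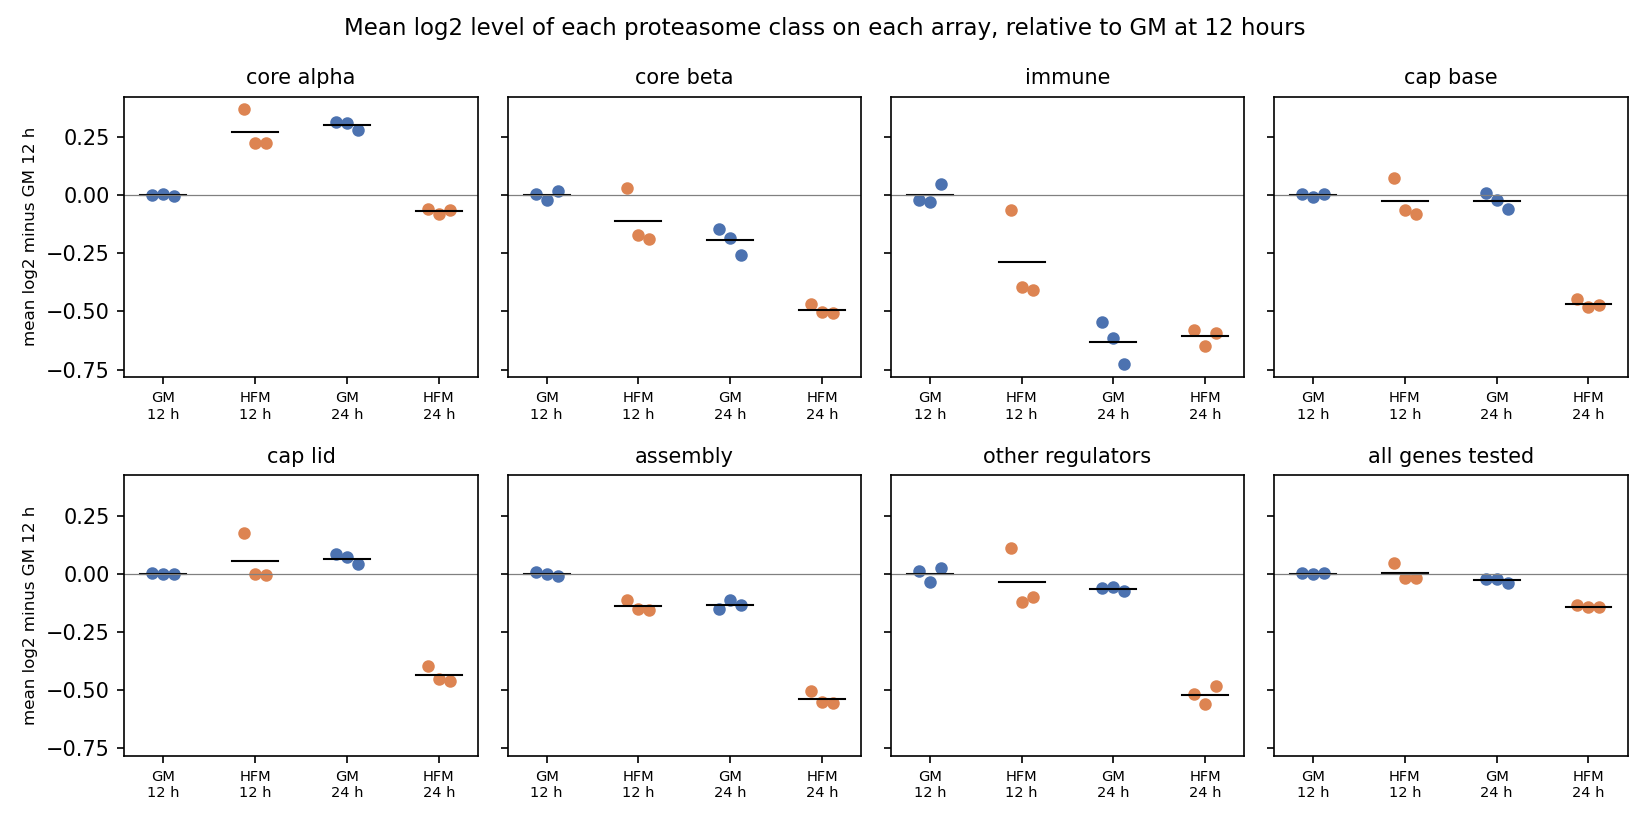
Mean log2 value of each class on every array, as the difference from the mean of the GM arrays at 12 hours, for the 7 classes and for all genes tested; points are the 3 arrays of each group. The core alpha mean lies between 0.22 and 0.37 in HFM at 12 hours and between -0.08 and -0.06 in HFM at 24 hours, and HFM replicate 1 at 12 hours is the highest HFM array of that time in each class.

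The assembly genes encode chaperones that are not part of the finished particle: PSMG1 with PSMG2 and PSMG3 with PSMG4 help to build the core, and PSMD5, PSMD9 and PSMD10 the base. PSMG3 lay at 9.17, 9.24 and 9.23 on the GM arrays and 8.98, 8.75 and 8.64 on the HFM arrays at 12 hours, and the 24-hour values were 8.55, 8.57 and 8.57 in GM against 7.88, 7.82 and 7.75 in HFM. PSMG3 had the largest 24-hour fall of the class, -0.74 ± 0.08 (adjusted p = 4.7e-06), after -0.42 ± 0.08 (adjusted p = 0.00058) at 12 hours. PSMG4 lay at 10.49, 10.43 and 10.46 on the GM arrays and 9.78, 10.12 and 10.10 on the HFM arrays at 12 hours, and the 24-hour values were 9.99, 10.12 and 10.12 in GM against 10.05, 10.02 and 10.07 in HFM. Its HFM arrays were below GM at 12 hours and overlapped at 24 hours, with changes of -0.46 ± 0.08 (adjusted p = 0.00052) and -0.03 ± 0.08 (adjusted p = 0.77). A weaker probe set of PSMG4 was called in the other direction at 12 hours, by 0.31.

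PSMD10, which holds an ATPase during base assembly and is known as gankyrin, went the other way at 12 hours. PSMD10 lay at 10.36, 10.36 and 10.30 on the GM arrays and 10.90, 10.70 and 10.72 on the HFM arrays at 12 hours, and the 24-hour values were 10.83, 10.85 and 10.85 in GM against 10.68, 10.60 and 10.64 in HFM. Its change was 0.43 ± 0.06 (adjusted p = 5.8e-05) and then -0.20 ± 0.06 (adjusted p = 0.0089). PSMG1, PSMD5 and PSMD9 were lower at both times, with -0.24, -0.14 and -0.30 at 12 hours and -0.71, -0.66 and -0.22 at 24 hours. PSMD5 lost its 12-hour call without GM replicate 1 (adjusted p = 0.063) or 3 (0.075) or HFM replicate 2 (0.098) or 3 (0.061). PSMG2 was higher at 12 hours (0.15) and lower at 24 hours (-0.25). After centring the 24-hour changes of PSMD10 (-0.025), PSMD9 (-0.044) and PSMG2 (-0.075) were not called.

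The remaining regulators bind the core in place of the cap or restrain it. PSMF1 lay at 9.43, 9.32 and 9.38 on the GM arrays and 8.75, 8.67 and 8.85 on the HFM arrays at 12 hours, and the 24-hour values were 8.80, 8.84 and 8.82 in GM against 8.11, 8.08 and 8.24 in HFM. PSMF1, which inhibits the core in the test tube, was lower in HFM on every array at both times, with changes of -0.62 ± 0.06 (adjusted p = 5.6e-06) and -0.68 ± 0.06 (adjusted p = 1.4e-06). A second probe set of PSMF1 gave -0.28 and -0.10, of which the second was not called. PSME4 lay at 7.55, 7.51 and 7.59 on the GM arrays and 8.32, 8.01 and 7.99 on the HFM arrays at 12 hours, and the 24-hour values were 8.21, 8.16 and 8.16 in GM against 8.21, 8.11 and 8.18 in HFM. PSME4, an activator linked to the degradation of acetylated histones, was higher at 12 hours with 0.55 ± 0.08 (adjusted p = 9.6e-05), and at 24 hours the groups overlapped with -0.0097 ± 0.08 (adjusted p = 0.93). Its other probe sets gave 0.64 and -0.56 at 24 hours, both called, and after centring the change was 0.17. PSME3, the nuclear activator, had -0.04 ± 0.08 (adjusted p = 0.68) and -0.68 ± 0.08 (adjusted p = 2.5e-05), and without HFM replicate 1 its 12-hour change was -0.16 and called (adjusted p = 0.0053).

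The size of the HFM effect differed between the times for 28 members, with 26 more negative at 24 hours and 2 more positive, against 33.4% and 19.4% of all genes (52.8% in all). After centring the counts of members were 20 and 6, with no share of all genes taken for that fit. Of the 41 members 12 were higher at 12 hours and lower at 24 hours with a called difference: 5 core alpha, 2 cap base, 3 cap lid and 2 assembly genes. Another 13 were lower at both times, and for 6 of these the difference between the times was called. After centring, some of the 12 lost the 24-hour call: PSMA1 (0.017), PSMA2 (-0.042), PSMC6 (-0.23), PSMG2 (-0.075) and PSMD10 (-0.025). Of the 13, PSMB3 (-0.10) and PSMD9 (-0.044) lost it too. The largest differences were -1.12 ± 0.06 (adjusted p = 8.6e-08) for PSMD12, -0.95 ± 0.07 (adjusted p = 4.5e-07) for PSMA3 and -0.87 ± 0.11 (adjusted p = 5.4e-05) for PSMA5. The 2 positive ones were 0.67 ± 0.12 (adjusted p = 0.00054) for PSMB9 and 0.43 ± 0.12 (adjusted p = 0.0086) for PSMG4, and without HFM replicate 1 at 12 hours there were 5. PSMB8, PSMB10 and PSME1, with 0.32, 0.36 and 0.25, were called in that fit.

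The time contrasts share arrays with the medium contrasts, so their values are set side by side. From 12 to 24 hours in GM, 13 members were higher and 20 lower, with a median of -0.15, against 29.4% and 40.5% of all genes (69.9% in all) and a median of -0.12. The arrays of these groups did not overlap for 17 higher and 22 lower members, against 33% and 45.8% of all genes. Of the core alpha genes 5 of 6 were higher, with PSMA3 at 0.56, and of the core beta genes 5 of 7 were lower. Over the same hours in HFM, 0 members were higher and 35 lower by limma, with a median of -0.39, against 20.1% and 43.1% of all genes (63.1% in all) and a median of -0.12. No overlap was found for 0 higher and 36 lower members, against 21.1% and 44.8% of all genes. After centring 5 members were higher and 25 lower, with no share of all genes taken for that fit. Without HFM replicate 1 at 12 hours 1 was higher. The largest falls in HFM were -0.97 for PSMG3, -0.97 for PSMC3, -0.89 for PSME3 and -0.85 for PSMC4.

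Other genes of the pathway were counted in 4 lists, which were chosen with results of these data known. Of 11 proteasome partners, 8 were lower and 1 higher at 24 hours, with a median of -0.51, against 37.5% lower and 20.6% higher of all genes. At 12 hours 3 were higher and 3 lower, near the 28.9% and 33% of all genes. AKIRIN2 lay at 8.23, 8.11 and 8.14 on the GM arrays and 8.04, 8.03 and 8.03 on the HFM arrays at 12 hours, and the 24-hour values were 8.01, 8.03 and 8.03 in GM against 7.04, 7.15 and 7.04 in HFM. AKIRIN2, which takes proteasomes into the nucleus, had the largest fall of this list at 24 hours, -0.94 ± 0.05 (adjusted p = 1.7e-08), with no overlap. UBE3C, a ubiquitin ligase bound to the proteasome, had -0.94 ± 0.05 (adjusted p = 2.1e-08). The deubiquitinases UCHL5 and USP14 had -0.62 and -0.59, the ubiquitin receptor ADRM1 -0.58 and the maturation factor POMP -0.33, all lower. ECPAS, a proteasome-binding scaffold, was the member called higher, by 0.15.

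The NRF1 list holds NFE2L1, which raises subunit genes when proteasome activity is short, and related genes such as NFE2L2, NGLY1, MAFF and MAFG. Of its 7 genes 5 were tested, and at 24 hours 3 were higher and 1 lower, against 20.6% and 37.5% of all genes. NFE2L1 lay at 9.88, 9.88 and 9.92 on the GM arrays and 10.15, 9.96 and 9.96 on the HFM arrays at 12 hours, and the 24-hour values were 9.73, 9.74 and 9.60 in GM against 10.27, 10.24 and 10.28 in HFM. All HFM arrays of NFE2L1 were above GM at both times, with 0.12 ± 0.06 (adjusted p = 0.096) at 12 hours and 0.57 ± 0.06 (adjusted p = 6.6e-06) at 24 hours. MAFF, a small partner of such factors, was lower at 12 hours (-0.77) and higher at 24 hours (0.77), and MAFG was higher at 24 hours (0.30). NFE2L2 was higher at 12 hours (0.53) and lower at 24 hours (-0.13). NGLY1, the enzyme that removes sugars from NFE2L1, was higher at 12 hours (0.65) and had 0.13 at 24 hours, which was not called.

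Of 15 genes of ubiquitin and its delivery 11 were tested, with 2 higher and 6 lower at 24 hours and 3 higher and 5 lower at 12 hours. Over all genes 20.6% were higher and 37.5% lower at 24 hours and 28.9% and 33% at 12 hours, and the counts of so few genes are near these shares. VCP, the ATPase that extracts tagged proteins, was lower at both times (-0.24 and -0.47), and its cofactors NPLOC4 and UFD1 had -0.64 and -0.60 at 24 hours. UBA6, a ubiquitin-activating enzyme, was higher at both times, by 0.51 and 0.62.

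Of 13 interferon and antigen processing genes 10 were tested, and 7 were higher and 1 lower at 24 hours, with a median of 0.47, while 2 were higher and 5 lower at 12 hours. Of all genes 20.6% were higher and 37.5% lower at 24 hours, and 28.9% and 33% at 12 hours. TAP1 lay at 8.86, 8.83 and 8.85 on the GM arrays and 8.68, 8.25 and 8.21 on the HFM arrays at 12 hours, and the 24-hour values were 8.22, 8.24 and 8.17 in GM against 8.68, 8.63 and 8.66 in HFM. TAP1, which starts 488 bases from PSMB9, was below GM at 12 hours and above it at 24 hours on every array, as PSMB9 was. Its change was -0.47 ± 0.10 (adjusted p = 0.0016) and 0.45 ± 0.10 (adjusted p = 0.002). TAPBP and TAP2, of the peptide-loading complex, were higher at 24 hours by 0.88 and 0.79, and HLA-B and HLA-C by 0.50 and 0.51. IRF1, the transcription factor that raises immune subunits under interferon, went the other way. IRF1 lay at 7.83, 7.72 and 7.74 on the GM arrays and 6.81, 6.60 and 6.61 on the HFM arrays at 12 hours, and the 24-hour values were 6.93, 6.92 and 6.92 in GM against 6.28, 6.02 and 6.12 in HFM. All HFM arrays were below GM at both times, with -1.09 ± 0.07 (adjusted p = 3.7e-07) and -0.78 ± 0.07 (adjusted p = 2.4e-06). The difference of the HFM effect between the times was called more positive for 9 of these 10 genes, against 19.4% of all genes.

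**Figure D4:**
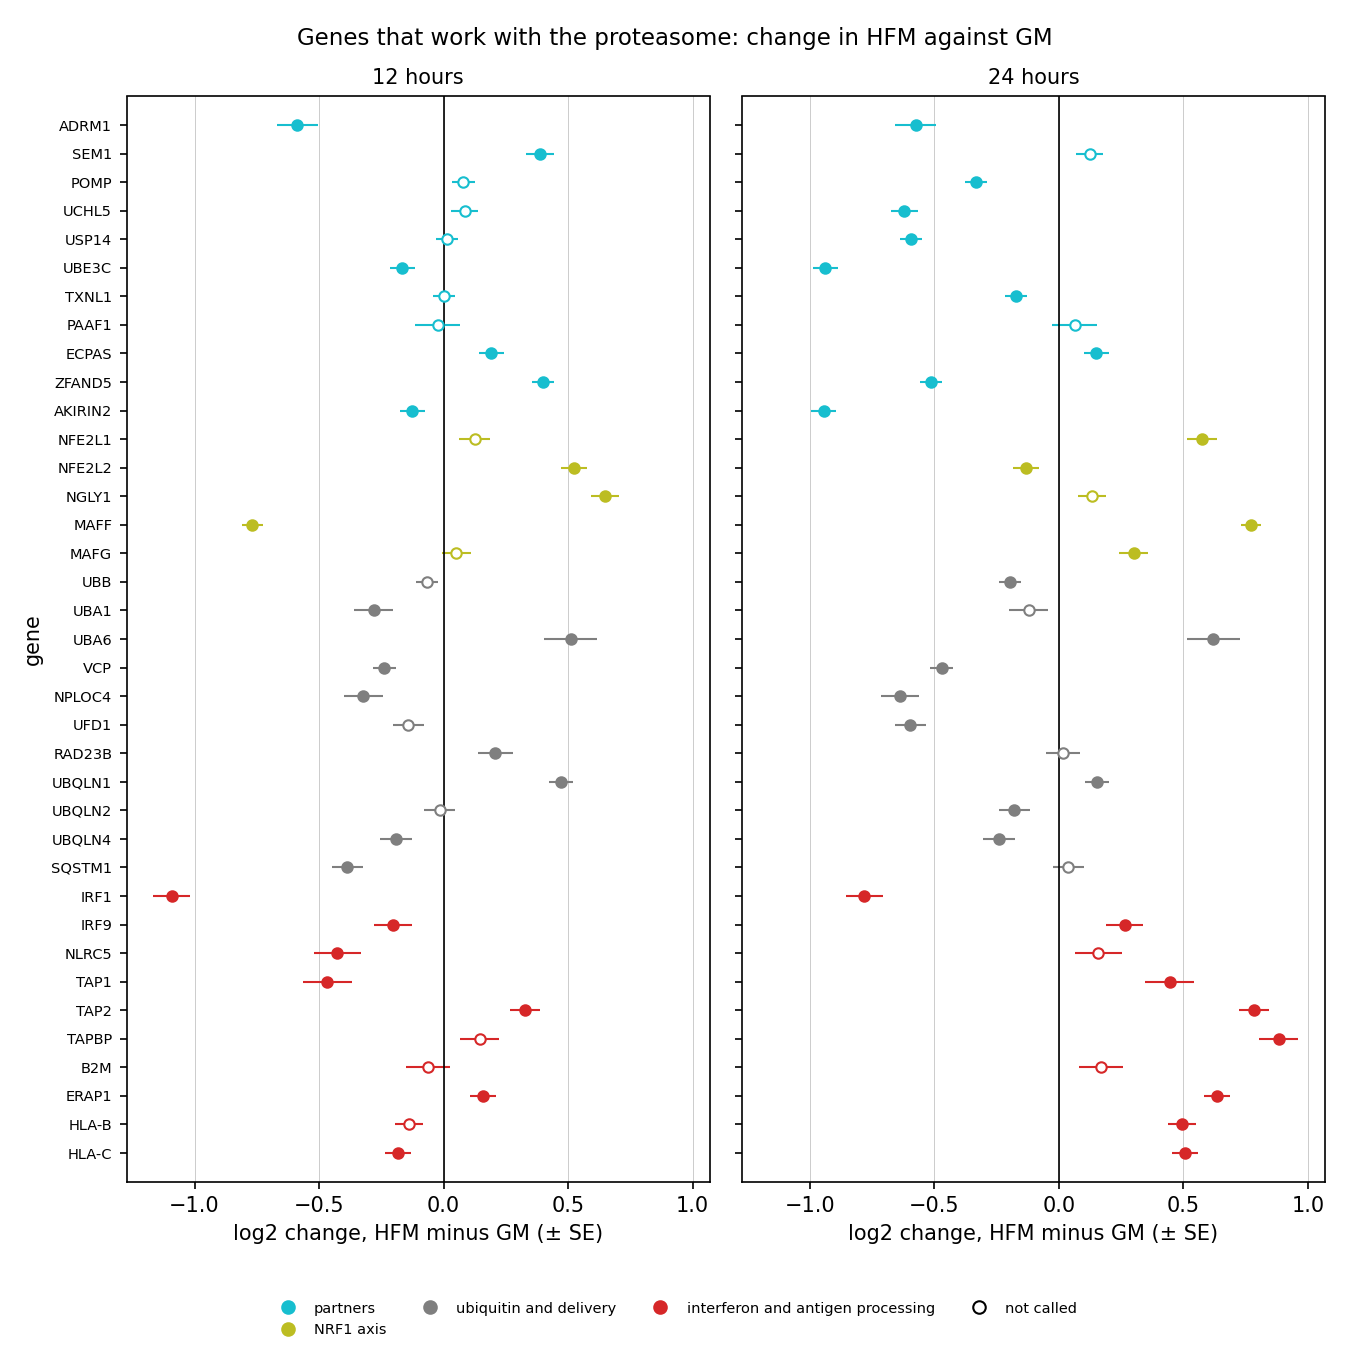
Log2 change in HFM against GM at 12 and at 24 hours for the 37 tested genes of the 4 pathway lists, with standard error bars (n = 3 arrays per group) and filled points for an adjusted p under 0.05. At 24 hours AKIRIN2 and UBE3C lie lowest among the partners, at -0.94, and TAPBP highest among the antigen processing genes, at 0.88.

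Several genes had further probe sets, and these differed for some members. The count of opposite calls took only members whose probe set in use was itself called. It thus left out, at 12 hours, PSMB2 (0.14 in use, -0.30 on another), PSMB7 (-0.17 and 0.79) and PSMD11 (-0.02 and 0.88). At 24 hours it left out PSME4 (-0.01, with 0.64 and -0.56 on others). Of 20 members with several probe sets above the filter, 1 had a second probe set with an opposite call at 12 hours and 4 had one at 24 hours. The latter were PSMA3 (1.49 and 2.09), PSMB1 (1.55), PSMB2 (1.23) and PSMB7 (1.31), all higher in HFM on probe sets with means between 3.32 and 4.78, where the probe sets used had means between 11.50 and 12.27. With the probe sets of a gene averaged, the 24-hour change was 1.03 for PSMA3, 0.39 for PSMB1, 0.18 for PSMB2, 0.53 for PSMB7 and 0.68 for PSMD6, which had 1 probe set above the filter and others below it. The weak probe sets lie near the filter level of log2 4. What the weak probe sets detect was not tested.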

How the data were processed

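RNA of 12 Sk-hep1 samples was hybridised to arrays of 54675 probe sets, 3 arrays for each medium and time. The deposited values are log2 expression, which the authors computed by GCRMA according to the submitters' processing notes. No version or filter of theirs is given in the sources used here. GCRMA corrects background and normalises the arrays together, which pulls low values to a floor. The number of arrays limits the precision.

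Probe sets with exactly 1 symbol in the platform annotation were kept (41097), the one with the highest mean stood for a gene, and a gene was tested where 3 arrays or more reached log2 4. The lmFit and eBayes functions of limma 3.58.1 (R 4.3.3) fitted the 4 group means to every gene tested. "Called" means a Benjamini-Hochberg adjusted p under 0.05 over the 13130 genes. All adjusted p are from limma, and the error of a log2 change is its standard error (3 arrays in each group). The pipeline was tested on simulated data. Same-numbered replicates had correlations of their deviations between -0.17 and 0.42 over 18 pairs of arrays. Those of differently numbered replicates lay between -0.49 and 0.44 over 36 pairs. These ranges overlapped, and the numbers were not used as pairs.

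Members, classes, lists and motifs were chosen with earlier results of these data known. Given with all arrays were, per class, the called member with the largest rise and fall at each time, the catalytic subunits, PSME1, the 3 largest differences between times and a few list genes. PSME2 belonged to the same rule but had no value. A further list gene is not reported here. Promoter windows come from RefSeq (GRCh38.p14). The alternatives were other filters, probe set rules and scalings, a robust eBayes, fits of fewer groups or with further terms, and leaving out each array. Figures used matplotlib 3.10.9 in Python 3.11.15.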

Additional observations from a re-analysis of the deposited data

Results flagged for a closer look

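The change in HFM against GM was not the same at 24 hours as at 12 hours for 28 members, by limma's test of the difference (adjusted p under 0.05). Values are the log2 change at 24 hours minus that at 12 hours. In the core alpha class they were -0.41 for PSMA1, -0.33 for PSMA2, -0.95 for PSMA3, -0.84 for PSMA4, -0.87 for PSMA5 and -0.45 for PSMA7. In the core beta class they were -0.34 for PSMB2 and -0.38 for PSMB5, and among the immune genes the value was 0.67 for PSMB9. The cap base gave -0.42 for PSMC1, -0.70 for PSMC2, -0.42 for PSMC3, -0.38 for PSMC4, -0.72 for PSMC6, -0.39 for PSMD1 and -0.24 for PSMD4. The cap lid gave -0.56 for PSMD6, -0.58 for PSMD11, -1.12 for PSMD12 and -0.81 for PSMD14. The assembly genes gave -0.47 for PSMG1, -0.40 for PSMG2, -0.32 for PSMG3, 0.43 for PSMG4, -0.52 for PSMD5 and -0.64 for PSMD10, and the other regulators -0.64 for PSME3 and -0.56 for PSME4. The smaller differences were not all firm. That of PSMD4 lost its call in 7 of the 12 fits without 1 array (adjusted p from 0.056 to 0.086), namely without any 1 GM array at 12 hours, GM replicate 1 at 24 hours or any 1 HFM array at 24 hours. It also lost it with no filter (0.064), with probe sets averaged (-0.07), after centring (-0.03) and with repeated quantile normalisation (adjusted p = 0.065). PSMG3 lost its call without GM replicate 1 at 12 hours (adjusted p = 0.059), GM replicate 2 at 24 hours (0.051) or HFM replicate 3 at 24 hours (0.062). It also lost it with repeated quantile normalisation (0.080) and after centring (-0.12). The planned hybridisation control class repeats the fit without GM replicate 2 at 24 hours (0.051). After centring the calls of PSMA2, PSMB2, PSMC4 and PSMG1 were lost too, with adjusted p from 0.054 to 0.12. PSMB2 was not called without _x_at and _s_at probe sets (-0.03) and PSMG4 not with probe sets averaged (0.07). The ACTB and GAPDH 3' minus 5' differences also moved with HFM at 24 hours, as given above.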

How the results depend on the processing

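The count of 35 lower members at 24 hours ranged from 24 to 36 over all alternatives, and was 24 of 31 measured without probe sets of the types _x_at and _s_at. The block on replicate numbers gave 14 higher and 18 lower members at 12 hours, 2 and 35 at 24 hours, 13 and 20 for time in GM, 0 and 35 for time in HFM, and 2 and 26 for the difference between times. With only the compared groups in the fit 10 members were lower at 12 hours. With the hybridisation control class (added after seeing the data) 8 were lower at 12 hours, 11 were lower with time in GM and 1 was higher with time in HFM. With the planned class 1 was higher at 24 hours. This class sets apart GM replicate 2 at 24 hours alone and repeats the fit without it. With no filter 1 was higher as well. With the mean over all probe sets of a gene 7 were higher at 24 hours, 4 with time in HFM and 4 for the difference between times. Without _x_at and _s_at probe sets 1 was higher with time in HFM and 17 had a more negative difference. After centring 5 were higher with time in HFM and 6 had a more positive difference. Leaving out each array gave 10 to 22 lower at 12 hours, 0 to 2 higher at 24 hours, 0 to 1 higher with time in HFM and 2 to 5 with a more positive difference. The 2 higher members at 24 hours became 0 without GM replicate 3, HFM replicate 1 or HFM replicate 3, and 1 without GM replicate 2 or HFM replicate 2.

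Some members changed sign. With the mean of probe sets, the 12-hour change was 0.31 for PSMB7 and 0.43 for PSMD11. At 24 hours it was 1.03 for PSMA3, 0.39 for PSMB1, 0.18 for PSMB2, 0.53 for PSMB7 and 0.68 for PSMD6, and the difference between times was 0.63 for PSMA3, 0.47 for PSMB1, 0.13 for PSMB2 and 0.46 for PSMD6. For PSMA3, PSMB1, PSMB2 and PSMB7 the mean takes in the weak probe sets described above, for PSMD11 the further one, and for PSMD6 probe sets below the filter, with the cause not tested. Without _x_at and _s_at probe sets, PSMD11 was at 0.88 and PSMG4 at 0.31 at 12 hours, PSMB1 at 1.55 at 24 hours, and the difference was 1.72 for PSMB1 and -0.16 for PSMG4. With the added hybridisation control class, which sets HFM replicate 1 alone against GM at 12 hours, PSMD11 was at 0.18 and PSME3 at 0.20. After centring PSMA1 was at 0.017, PSMB1 at 0.039 and PSME4 at 0.17 at 24 hours. For centring the cause was not tested. Of 322 values of the 14 class medians under alternatives, 8 changed sign.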
